A study of Mus musculus with 10 samples.

Results

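Kidney tissue of wild-type mice given tamoxifen was compared between the side that had gone through ischaemia and reperfusion and the other, contralateral side. The libraries were taken by their labels: 4 bulk RNA-seq libraries of the injured kidney and 4 of the contralateral kidney, 8 of the 32 bulk libraries of the series. These mice were C57/BL6 and 8 weeks old. Blood flow to 1 kidney was stopped by tying the renal artery for 15 min, and the kidneys were taken 2 weeks later. Both groups carry the tamoxifen treatment and both come from injured animals, so the reference is the opposite kidney after injury and not a kidney of an untouched mouse. The other arms used for comparison were Pax8creERT2;Ihhfl/fl mice of the same age with the same injury, in which a tamoxifen-activated Cre recombinase under the Pax8 promoter (active in renal tubule epithelium) acts on floxed Ihh. That strain was either given tamoxifen (labelled Ihh-deleted here) or not (labelled VEH, called the floxed vehicle arm), with 4 injured and 4 contralateral libraries in each arm. Whether the 4 columns of a group come from 4 different mice is not stated in the labels, so p-values measure the spread between these libraries, which may be technical.

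As background, the proximal tubule reabsorbs most of the filtered salt, glucose, phosphate and protein, runs on fatty acid oxidation, and is the segment most easily damaged when blood flow stops. Surviving tubule cells lose transport and metabolic genes, express injury genes such as Havcr1 and Lcn2, and divide to cover the lost epithelium. Where repair is incomplete, leukocytes stay, and fibroblasts and pericytes lay down collagen. Indian hedgehog, sonic hedgehog and desert hedgehog are secreted ligands that release Smoothened from its receptor Patched and so switch on Gli transcription factors, often in stromal cells near a ligand-making epithelium. The title of the series ties Indian hedgehog from inflamed epithelium and TNF to fibrosis. This comparison sets the injured against the contralateral kidney on an unmodified Ihh background.

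Total counts were 20711126 to 24731143 in the injured and 23547646 to 25476355 in the contralateral libraries. Lrp2, Kap, Gpx3 and Slc34a1, genes of the proximal tubule, were among the 10 highest genes of the contralateral group, and Lrp2 and Gpx3 were also among the 10 highest of the injured group. Composition differed between the groups. The 100 highest genes took 13.2% to 14.9% of counts in injured and 21% to 22.2% in contralateral libraries, and mitochondrially encoded genes took 1.27% to 1.97% against 2.51% to 3.47%. Scaling therefore matters: with library totals in place of the trimmed-mean (TMM) factors the median log2 fold change of all genes moves up by 0.43, and every change below is relative to the TMM median, which lies at 0.04. In bulk tissue, fewer cells of a type and less RNA per cell cannot be told apart.

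Most of the transcriptome differed between the 2 kidneys. Of 16218 genes tested with edgeR, 11016 passed an adjusted p of 0.05, which is 67.9%. Higher levels in the injured kidney were called for 5705 genes (35.2%) and lower levels for 5311 (32.7%). With library totals the called genes split into 9268 higher and 2747 lower, so the balance of the split depends on the scaling. The 2 directions had unlike shapes. The 2 groups did not overlap for 33.2% of genes with injured values higher and 31.7% with them lower. The median called rise was 1.23 on the log2 scale and the median called fall -0.78, and 743 genes rose 8-fold or more while 18 fell that far. Among the 6660 genes whose mean log2 CPM reached 5 (CPM is the counts-per-million value of the TMM-scaled library), 1703 rose and 3237 fell. Tested against a fold of 1.5, 3388 genes (20.9%) remained higher and 2419 (14.9%) lower. In the counts of gene lists below, these shares of 35.2% and 32.7% are the background. The lists and their members were chosen with earlier results of these data known, so their counts are descriptions.

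**Figure D1:**
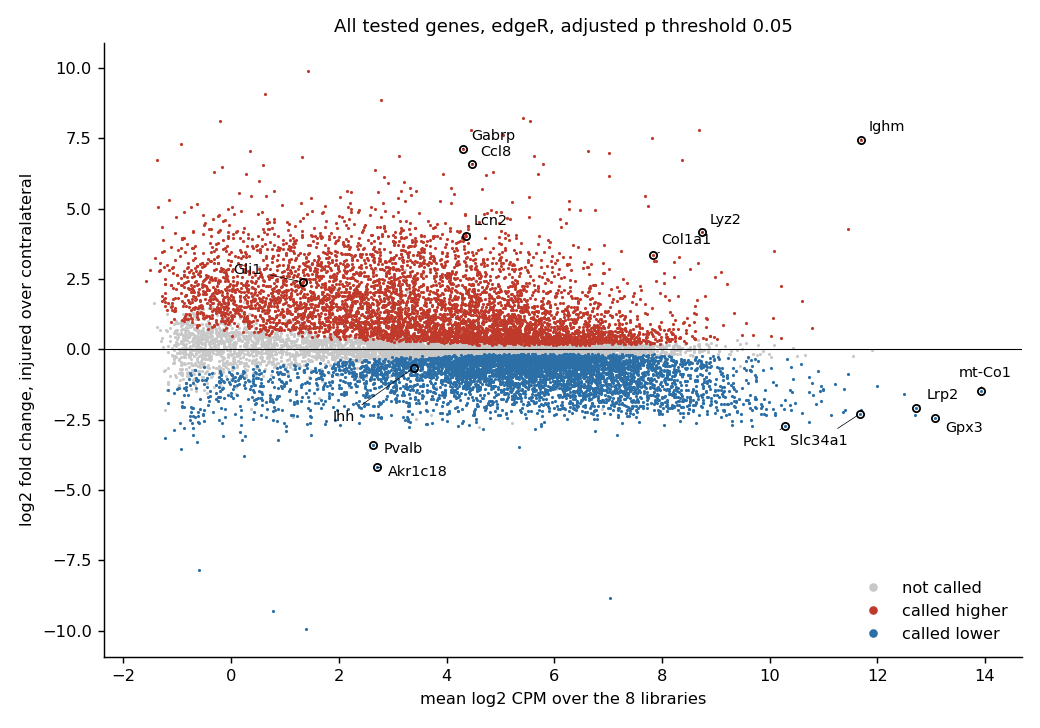
Log2 fold change of the injured over the contralateral kidney (vertical axis) against the mean log2 CPM over the 8 libraries (horizontal axis) for the 16218 genes tested; red and blue points passed an adjusted p of 0.05. Large rises are frequent at low and middle levels, Ighm (7.45) and Lyz2 are labelled among the abundant genes that rose, and the abundant kidney genes Gpx3, Lrp2, Slc34a1 and mt-Co1 lie below 0.

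Proximal tubule genes fell together. Slc34a1, the main phosphate transporter of the brush border (GRCm38 chr13:55398187-55415592), stood at 649, 539, 1528 and 1684 CPM in the injured libraries and at 5166, 5681, 5633 and 5172 in the contralateral ones. The fall was 4.92-fold (log2 -2.30, SE 0.39, adjusted p = 0.000892), and injured libraries 1 and 2 were lower than 3 and 4 by more than the spread of the contralateral group. Lrp2 (megalin), which takes up filtered protein, had 1543, 1341, 3242 and 4248 CPM against 10171 to 11530. Of 28 listed transporters, 27 fell and none rose, with a median of -2.06 on the log2 scale. Slc6a20a, an imino acid carrier, was the member not called, at -0.52. Slc22a8, an organic anion transporter, moved most, at -2.70, with 34.8, 34, 141 and 70.2 CPM against 324 to 582. Slc13a3 (dicarboxylates), Slc6a19 (neutral amino acids) and Slc22a7 (organic anions) followed at -2.56, -2.39 and -2.35. The sodium-glucose carriers fell unequally: Slc5a2 changed by -2.09 and Slc5a1 by -0.89.

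Metabolic enzymes of this segment fell in the same libraries. All 30 listed genes were lower, and no injured library overlapped a contralateral one in any of them, which holds for 31.7% of all genes tested in this direction. The median was -2.28, against 0.04 for all genes tested. Pck1, the rate-limiting enzyme of gluconeogenesis, had 203, 260, 466 and 382 CPM in the injured kidney and 1883, 3482, 2144 and 1222 in the contralateral one (log2 -2.74, SE 0.38, adjusted p = 0.00037). G6pc, the last step of glucose release, fell by 2.61 on the log2 scale, Gldc (glycine cleavage) by 2.90, and Hpd (tyrosine breakdown) fell by 2.71. Kap, an androgen-regulated kidney gene that reached 11809 CPM in a contralateral library, lay between 1227 and 3332 CPM after injury.

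Mitochondrial genes formed the other large block of falls. The 30 nuclear genes of the respiratory chain and ATP synthase were all lower, in a narrow band from -1.69 to -1.08. Atp5b, the catalytic subunit of ATP synthase, had 707, 628, 1023 and 1107 CPM against 2617 to 2768 (log2 -1.64, SE 0.21, adjusted p = 0.000223). Of 26 fatty acid oxidation genes, 25 fell, with a median of -1.59. Acaa1b, a peroxisomal enzyme of this pathway, and Acot12, another member of the list, changed by -2.37 and -2.25. Cyp4a14 had the most negative estimate, -3.46, but its contralateral values ran from 9.3 to 197 CPM and overlapped the injured ones, which reached 22, and its adjusted p was 0.0381. Cyp4a14 was not called without injured library 1, 2 or 4 or contralateral library 2 or 3 (adjusted p 0.0646 to 0.126) or with library totals (0.0528). Glycolysis, which runs in most cell types, was mixed. Gapdh fell by 1.46 and Tpi1 by 1.47 on the log2 scale, and in all 10 of 17 genes were lower and 3 higher (5 higher with library totals). Slc16a3, the lactate exporter, Pfkfb3, which makes the activator of phosphofructokinase, and Pfkp, the platelet form of that enzyme, rose by 1.78, 1.11 and 0.94.

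Regulators of tubule identity were lower as well. Of 20 listed transcription regulators, 14 fell and 2 rose, and 14 fell and 5 rose with library totals. Hnf4a, which maintains the proximal program, changed by -1.95, and Ppara, the fatty acid sensor, had 20.2, 17.4, 44.2 and 41.9 CPM against 102 to 175 (log2 -2.17, SE 0.35, adjusted p = 0.000731). Pax8 and Pax2, present along the whole nephron, were not called, at 0.27 and 0.35. Foxj1, the regulator of motile cilia, was the largest exception and rose by 3.09, with 3.72 to 6.89 CPM against 0.333 to 0.809. In the antioxidant list of Nrf2 targets, 12 of 13 genes passed the low-count filter, 10 of which fell and 1 (Slc7a11, the cystine importer) rose. Gpx3, the secreted glutathione peroxidase and one of the highest transcripts of the organ, went from 13242 to 16042 CPM down to 1635 to 3959. Cholesterol synthesis enzymes fell in 11 of 17 cases, led by Cyp51 at -1.78. With library totals 6 of the 17 fell and 2 rose.

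HNF4 is known to bind the letters CAAAGTCCA, and this string was searched on both strands in the 250 bases before each gene start in RefSeq windows of build GRCm38. It was present in 1 of 22 transporter genes with a window and in 2 of 26 metabolic ones (4.55% and 7.69%), against 0.456% of 11832 tested genes. Among all called genes the share was 0.467% of those lower (19 of 4067) and 0.539% of those higher, and the list shares rest on 1 and 2 genes. One window from each list is printed, with the match in capitals.
Slc3a1, chr17:85028298-85028326, plus strand: cttggctggaCAAAGTCCAgccatgatta
Agxt2, chr15:10358502-10358530, plus strand: cttctaatatCAAAGTCCAgtccagtcag
Slc3a1, a subunit of the cystine transporter, changed by -1.96 and Agxt2, a mitochondrial aminotransferase, by -1.98. A match is a string of letters and shows no binding.

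Other nephron segments differed in how many of their genes fell. In the distal convoluted and connecting tubule 12 of 13 genes were lower, with a median of -1.79. Slc12a3, the thiazide-sensitive cotransporter, had 192, 221, 580 and 523 CPM against 1514 to 2039 (log2 -2.26, SE 0.38, adjusted p = 0.000898). Pvalb and Calb1, calcium-binding proteins of this segment, changed by -3.39 and -2.53, while Trpm6, the magnesium channel, was not called. In the loop of Henle 7 of 13 fell and 2 rose, with a median of -0.69. With library totals 4 fell and the median was -0.25. Egf, made mainly in the thick ascending limb, dropped from 2270 to 2905 CPM to 231, 314, 905 and 703, and Umod, the most abundant urinary protein, changed by -0.87. Slc12a1, the loop diuretic target, was not called at -0.25. Cldn16 and Cldn19, which form the paracellular magnesium and calcium path, rose by 1.20 and 1.11. Collecting duct genes had the fewest calls. Principal cell genes fell in 4 of 12 cases and intercalated cell genes in 3 of 12, shares close to or below the background of 32.7%, with Kit the 1 called rise at 1.36. With library totals 1 principal cell gene rose and 1 fell, and the intercalated list had 3 called in each direction and a median of 0.16 in place of -0.27. Aqp4, the basolateral water channel, had 2.38, 3.06, 88.1 and 11.7 CPM in the injured libraries. Injured library 3 therefore lay inside the contralateral range of 32.5 to 94.1, and the gene was not called (log2 -1.20, adjusted p = 0.329). Without that library the estimate was -3.41 with an adjusted p of 0.00244.

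Hormone and mineral handling followed the tubule. Of 14 genes of the vitamin D, klotho and renin-angiotensin list, 13 passed the filter and 12 fell. Kl (klotho), the co-receptor for a phosphate hormone, had 195, 160, 392 and 561 CPM against 1299 to 1509 (log2 -2.09, SE 0.38, adjusted p = 0.00136). Cyp24a1, which inactivates vitamin D, Vdr, its receptor, and Ace, the angiotensin-converting enzyme, changed by -2.16, -1.88 and -1.96. Fgfr1, the remaining member, was at 0.20 and not called. Ren1, counted among mural genes, fell by 1.78 on the log2 scale. Claudins split: Cldn2, the leaky proximal claudin, fell by 1.64, and Cldn3 and Cldn4, typical of tighter epithelia, rose by 2.14 and 2.02.

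Injury genes of the tubule were higher. Lcn2, which encodes a secreted iron-carrier protein used as an injury marker (GRCm38 chr2:32384633-32388252), had 41.9, 30.7, 47.9 and 32.8 CPM in the injured libraries and 3.06, 0.997, 1.61 and 3.78 in the contralateral ones, with no overlap. That is 16.1-fold (log2 4.01, SE 0.38, adjusted p = 0.0001). Havcr1 (KIM-1), a phosphatidylserine receptor of dying-cell uptake, was more variable, with 29.6, 10.3, 10.6 and 59.6 CPM against 8.32, 1.66, 2.69 and 7.6. Its rise of 5.42-fold had an adjusted p of 0.015, and injured libraries 2 and 3 lay close to the highest contralateral values. Of 24 listed genes 22 passed the filter, 19 rose and Plin2, a lipid droplet coat protein, fell. No gene of this list was called lower with library totals. Cd44, the hyaluronan receptor, had 104, 162, 92.7 and 81.2 CPM against 6.26 to 9.42. Krt20, Krt19 and Krt18, simple epithelial keratins, rose by 4.32, 3.60 and 2.02, and Sox9, a factor of regenerating tubule, by 2.46. Markers of urothelium, which lines the renal pelvis, moved in the same direction: all 8 rose, and their mean log2 CPM was 2.20 to 3.44 in the injured against -0.12 to 2.01 in the contralateral libraries. Krt5 had 5.38 to 19.5 CPM against 0.142 to 3.69. Psca and Upk2, 2 of these 8, were not called when injured library 3 or contralateral library 1 (Psca), or injured library 1 or contralateral library 1 or 2 (Upk2), was left out. The part of pelvic lining in the keratin values was not tested.

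Some of the largest rises were in single genes of varied function. Gabrp, a GABA receptor subunit, had 50.1, 35.2, 36 and 34.2 CPM in injured libraries against 0.143 to 0.44 (log2 7.13, SE 0.28, adjusted p = 2.83e-05). Crisp1, a secreted protein known from the epididymis, had 21.8, 20.4, 5.74 and 5.9 CPM, and it had counts in only 1 contralateral library, at 0.0899 CPM. Mmp7, a matrix protease of injured epithelium, had 6.29 to 10.3 CPM against 0.0978 to 0.237 (log2 5.63). Adcy8, an adenylyl cyclase, rose by 6.83 from a level near the detection limit. On the falling side the list was led by Akr1c18, a progesterone-metabolising enzyme, at -4.19, Pvalb at -3.39 and Cyp2d12, a cytochrome P450, at -3.05.

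**Figure D2:**
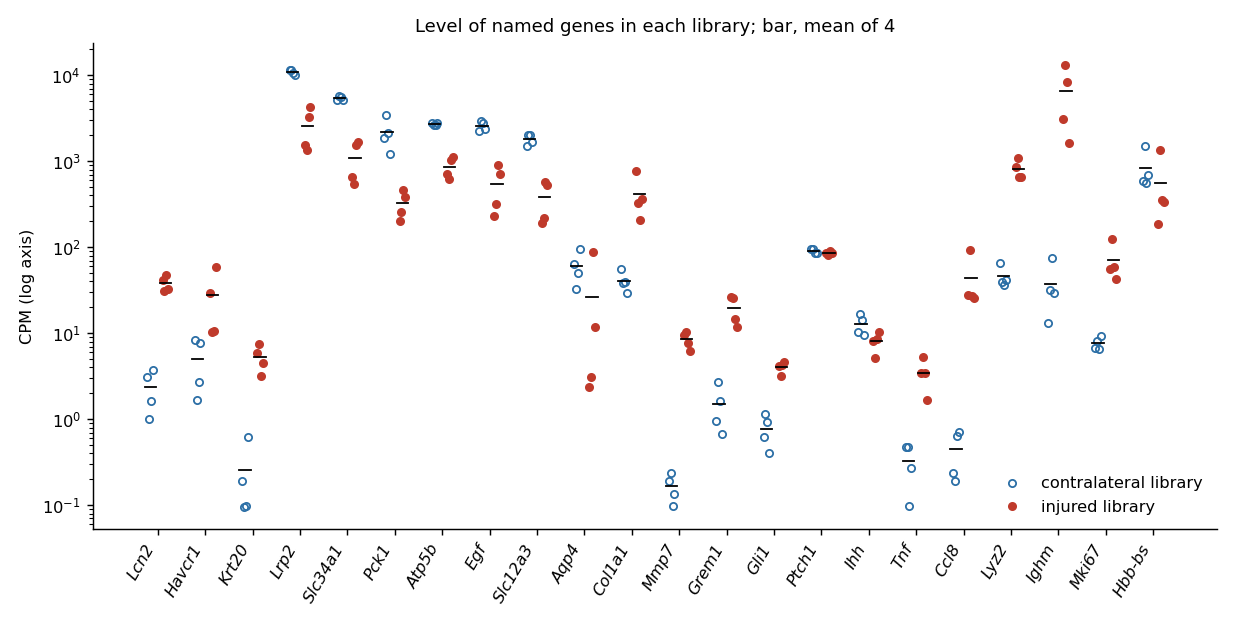
CPM (log axis) of named genes in each of the 4 contralateral (open, blue) and 4 injured (filled, red) libraries, with the mean of each group as a bar. Aqp4, Ptch1, Ihh and Hbb-bs overlap between groups, and the injured values of Lcn2, Mmp7, Gli1 and Lyz2 all lie above the contralateral ones.

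Interstitial and matrix genes rose broadly. Col1a1, the main chain of type I collagen (GRCm38 chr11:94936224-94953042), had 763, 330, 206 and 361 CPM in injured and 56.2, 38.7, 39.8 and 29 CPM in contralateral libraries. The rise was 10.1-fold (log2 3.34, SE 0.42, adjusted p = 0.000222), and injured library 1 stood highest. Of 20 collagen genes 14 rose and 2 fell. The fibrillar chains Col3a1 and Col1a2 rose by 3.10 and 2.72. The chains of basement membrane differed: Col4a1 and Col4a2 were not called, and Col4a3 and Col4a4, of the glomerular and tubular membrane, changed by -0.65 and -0.60. With library totals 18 collagens rose and none fell. In the matrix list 29 genes were measured, of which 28 rose and Timp3, a protease inhibitor bound to matrix, fell by 1.41. Ltbp2 and Mfap4, of elastic fibres, rose by 3.96 and 3.63 and Timp1 by 3.34.

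Contractile and growth factor genes showed the same direction. Acta2, the smooth muscle actin of myofibroblasts, had 93.4, 56.9, 39.5 and 58.9 CPM against 12.9 to 21 (log2 1.93, SE 0.26, adjusted p = 0.000332). Of 18 myofibroblast and mural genes 15 rose and 1, Ren1, fell. Thy1, Tagln and Pdgfra rose by 3.14, 2.24 and 1.90. Among 19 genes of TGF-beta and PDGF signalling 14 rose and 2 fell (1 with library totals). The ligands Tgfb1, Tgfb2 and Tgfb3 rose by 1.57, 2.01 and 2.04, and Inhba, an activin subunit, by 2.82. The BMP inhibitor Grem1 had 26.2, 25.8, 14.7 and 11.9 CPM against 0.674 to 2.71 (log2 3.72, SE 0.46, adjusted p = 0.000219), while Bmp7, a tubule-protective BMP, fell by 1.03 on the log2 scale. Wnt genes rose in 13 of the 18 that passed the filter out of 19, and none fell. Axin2, a direct Wnt target, had 33.7, 30.6, 24.8 and 19.8 CPM against 1.66 to 3.37.

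Within the Hedgehog pathway the ligands differed among themselves, and so did the receptor and response genes. Ihh, expressed by tubule cells (GRCm38 chr1:74945315-74951672), had 8.09, 5.15, 8.61 and 10.4 CPM in injured and 10.3, 16.8, 14.3 and 9.53 CPM in contralateral libraries. The groups overlapped, and the fall of 1.58-fold was close to the threshold (log2 -0.66, SE 0.25, adjusted p = 0.0447). It was not called with library totals (-0.23, adjusted p = 0.42), in the fit over 24 libraries (adjusted p = 0.133) or, with adjusted p of 0.07 to 0.121, when injured library 1, 2 or 3 or contralateral library 2 or 3 was left out. Shh was lower in level and rose, with 1.84 to 2.62 CPM against 0.19 to 1.17 (log2 1.79, adjusted p = 0.00579), and Dhh was not called. On the response side Gli1, the transcription factor induced by the pathway, had 4.12, 3.2, 4.22 and 4.58 CPM against 0.622, 1.14, 0.929 and 0.405 (log2 2.38, SE 0.31, adjusted p = 0.000248). Its relatives Gli3 and Gli2 were at 2.14 (called) and -0.17 (not called). Hhip, an inhibitor that the pathway induces, rose by 2.60. Ptch1, the receptor that the pathway induces, had 82.2 to 89.4 CPM against 85.4 to 96.4 and was not called (log2 -0.08, and 0.36 with library totals). In all, 8 of 13 receptor and response genes rose and 2 fell. The falls were Smo, the signal transducer, at -0.27 and Sufu, the Gli inhibitor, at -0.79. With library totals 10 of the 13 rose and 1 fell.

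Glomerular and vascular genes separated. All 10 podocyte genes rose, by 0.72 to 1.59, among them Wt1 at 1.48 and Nphs1 (nephrin) at 1.04. Injured libraries 1 and 2, the lowest in proximal genes, were the highest in podocyte genes, with mean log2 CPM of 6.03 and 5.96 against 5.30 and 5.48 in libraries 3 and 4. Endothelial genes had a median of 0.07, with 3 of 16 higher and 4 lower. With library totals 11 rose and 2 fell, so no direction can be given for this group. Esm1, a tip-cell product, had 4.64 to 8.8 CPM against 33.3 to 45.4 (log2 -2.47, SE 0.20, adjusted p = 7.52e-05), and Kdr, the main VEGF receptor, fell by 0.86 on the log2 scale. Vegfa changed by -0.99. Edn1 (endothelin 1) and Pgf (placental growth factor) rose by 1.71 and 2.10.

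**Figure D3:**
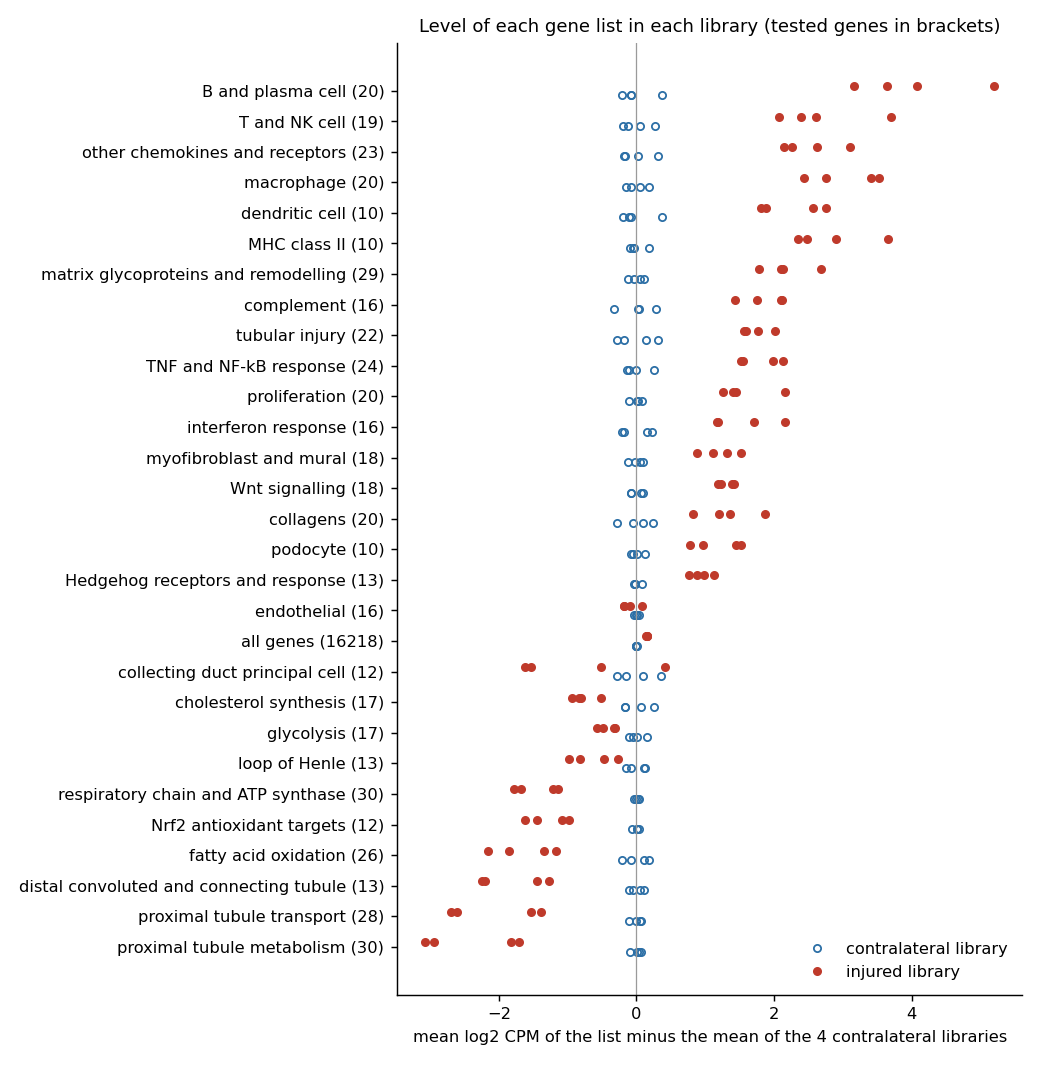
Mean log2 CPM of each gene list in each library, as the difference from the mean of the 4 contralateral libraries (horizontal axis); filled red points are injured and open blue points contralateral libraries, with the number of tested genes in brackets. Injured libraries fall on the right for leukocyte, matrix and injury lists and on the left for tubule and metabolic lists, with 1 injured library of the principal cell list at the right of 0.

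TNF and its target genes rose. Tnf had 3.45, 5.25, 3.4 and 1.67 CPM in injured and 0.478, 0.475, 0.0978 and 0.27 CPM in contralateral libraries (log2 3.36, SE 0.49, adjusted p = 0.000435), a low transcript that stood apart in all 4 libraries. Of 26 listed genes of the TNF and NF-kB response 24 passed the filter, 23 rose and Tnfaip2 was not called. The receptor Tnfrsf1b rose by 2.77 and Tnfrsf1a by 0.43. The feedback inhibitors Tnfaip3 and Nfkbia rose by 2.06 and 1.52, and the lymphotoxin subunit Ltb, led by injured library 2 at 28.3 CPM, by 3.99. Il6 and Ccl20 did not pass the filter, with injured values no higher than 0.476 and 0.983 CPM.

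A common core of NF-kB sites, the letters GGGA and TTCC with any 2 bases between them, was found on either strand in the 250 bases before the start of 7 of the 19 genes of this list that have a RefSeq window (36.8%). Over 11832 tested genes the share was 1.44%, and over the 17 other chemokine and receptor genes with a window it was 0%. The list was drawn from known NF-kB targets, so its share is a description. The 4 windows shown belong to genes that rose, with the match in capitals.
Nfkbia, chr12:55492657-55492686, minus strand: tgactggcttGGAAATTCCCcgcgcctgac
Cxcl1, chr5:90891164-90891193, plus strand: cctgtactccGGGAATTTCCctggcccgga
Cxcl2, chr5:90903792-90903821, plus strand: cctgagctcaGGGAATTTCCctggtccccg
Cxcl10, chr5:92349029-92349058, minus strand: agaggggagaGGGAAATTCCaagttcatgg
In the injured kidney Cxcl1 and Cxcl2, which draw neutrophils, rose by 1.75 and 4.24, and Cxcl10, which draws activated T cells, by 2.15. Cxcl2 was close to the detection limit, at no more than 2.02 CPM in any library.

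Leukocyte genes rose strongly. Among other chemokines and receptors 23 of 25 passed the filter and 22 rose, with a median of 3.26. In all leukocyte lists, members scarce in contralateral libraries, such as Ccl8, may have passed the filter through the injured group alone. Such members could hardly be called lower. Ccl8, a monocyte and T cell attractant, had 27.9, 93.3, 27.1 and 25.5 CPM against 0.19 to 0.719 (log2 6.58, SE 0.66, adjusted p = 0.000116), and Cxcl13, which organises B cell follicles, rose by 5.47. Every one of the 20 macrophage genes rose, by 1.31 to 6.30. Lyz2 (lysozyme) had 851, 1081, 653 and 655 CPM against 36.3 to 66, a rise of 17.7-fold. Trem2 and Gpnmb, of lipid-laden phagocytes, rose by 4.55 and 6.30, and Gpnmb was uneven, with 160 CPM in injured library 1 and 14.5 to 29.7 in the others. All 10 dendritic cell genes and all 10 MHC class II genes rose, with medians of 2.98 and 2.96.

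B and plasma cell genes had the highest median of the lists, 4.27, and T cell genes were close. In the T and NK cell list 19 of 22 genes passed the filter and all of those rose, with Cd3e at 3.67, Cd4 at 3.87 and Cd8a at 2.27. Their mean log2 CPM was only 0.09 to 0.55 in contralateral libraries, so members may have passed the filter through the injured group alone. Gzma, Gzmb and Ifng were below the filter, at no more than 1.67 CPM in any library. The checkpoint receptors Pdcd1 and Ctla4 rose by 5.10 and 5.06. All 20 B and plasma cell genes rose. Ighm, the heavy chain of IgM (GRCm38 chr12:113418558-113422730), had 3073, 13233, 8370 and 1635 CPM in injured and 13.2, 31.9, 75.7 and 29.6 CPM in contralateral libraries, a rise of 175-fold (log2 7.45, SE 0.93, adjusted p = 0.000227). Ighg2c and Ighg3 rose by 7.78 and 8.11, and Igha, the IgA chain, by 1.29. Fcrl5, a receptor of B cells, had 540 counts in injured and 0 in contralateral libraries, at least 147-fold higher when the floor is set at 3 counts over the group. Together, immunoglobulin genes took 15914, 48089, 25122 and 12320 CPM of unscaled library totals in the injured libraries and 827 to 1266 in the contralateral ones. Injured library 2 was highest for the B cell, T cell and MHC class II lists. Neutrophil genes were scarce: 5 of 10 passed the filter and 3 rose, while S100a8 had 0.199 to 0.556 CPM against 0.0978 to 1.43 and was not called.

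Complement, interferon and cell cycle genes accompanied them. Of 16 complement genes 13 rose and Cfb, a factor of the alternative pathway, fell. C3 had 587, 888, 443 and 381 CPM against 45 to 74.6 (log2 3.28, SE 0.30, adjusted p = 8.89e-05). In the interferon list 15 of 16 rose, with Mx1 at 2.91, and Rsad2 was not called. Of 20 proliferation genes 18 rose. Mki67, expressed in cycling cells, had 56.5, 126, 59 and 42.5 CPM against 6.6 to 9.3 (log2 3.20, SE 0.35, adjusted p = 0.000142). The cycling genes shared their highest library, injured library 2, with the lymphocyte genes, and the part of dividing leukocytes in these values was not tested. Of 16 arrest genes that passed the filter, 7 rose and 2 fell, and 11 rose and 2 fell with library totals, where the median was 0.62 in place of 0.18. Cdkn1a (p21) and Cdkn2b (p15) rose by 2.11 and 1.98, while Mdm2, Gdf15 and Bax were not called. Immediate early genes rose in 8 of 18 cases (12 with library totals), with Egr2 at 3.07 and Atf3 at 2.34, and Fos and Jun were not called. With the library number as a block 15 of these genes rose and 2 fell. Their mean log2 CPM in libraries 1 to 4 was 5.41, 4.78, 3.93 and 4.51 (injured) and 4.32, 3.65, 2.86 and 3.38 (contralateral).

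Genes of other tissues and cells gave a measure of what else was in the samples. Of 5 heart muscle genes that passed the filter 2 rose (4 with library totals) and 1, Ryr2, fell (log2 -1.36). Myh6, which rose, stayed at 0.287 to 3.06 CPM in all 8 libraries. Adipocyte genes were not called in any of 6 cases and followed single libraries: Adipoq had 32.1, 3.41, 4.22 and 41.5 CPM in injured and 1.77, 4.8, 13 and 14.4 CPM in contralateral libraries. Haemoglobin genes were not called either, and the library with number 2 was the highest of both groups, with Hbb-bs at 1360 and 1515 CPM. Without injured library 2 Hbb-bs was called lower (log2 -1.51, adjusted p = 0.0144). All 5 skeletal muscle genes were below the filter. The Y-linked genes Ddx3y, Kdm5d and Eif2s3y were not called, at -0.08, 0.08 and -0.02, and Uty fell by 0.31 on the log2 scale. Under library totals Ddx3y, Uty and Eif2s3y were positive instead, at 0.35, 0.12 and 0.42.

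The table is per transcript, so a change in which transcript of a gene carries its counts can also be seen. Of 10016 genes with at least 2 tested transcripts, 296 (2.96%) passed an adjusted p of 0.05 in the edgeR test of usage. Ptpn6 (SHP-1), a phosphatase of blood cells that epithelial cells also make from another promoter, had 12%, 7.2%, 23.1% and 22.3% of its counts on transcript Ptpn6-203 in injured and 67.4% to 78.9% in contralateral libraries. Its partner Ptpn6-202 went from a mean of 18.5% to 74.7%, and the gene rose by 1.21. Ttn (titin) carried 57% to 90.1% of its counts on Ttn-201 after injury and 2.65% to 18.5% in the contralateral kidney. Lrch4, a leucine-rich repeat protein, had 11.2% ± 7.79 (SD, n = 4) of its counts on Lrch4-201 against 72.3% ± 9.13. Ptk2b, Phyhd1, Prickle2, Prr5 and Ncapd3 were the other genes with large shifts, of which Prickle2 was not called with voom (adjusted p = 0.168). Without injured library 1 or 2 the 296 genes became 151 or 169. Salmon splits reads between transcripts by estimation, and the error of that step is not in the deposited values and not covered by the test.

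**Figure D4:**
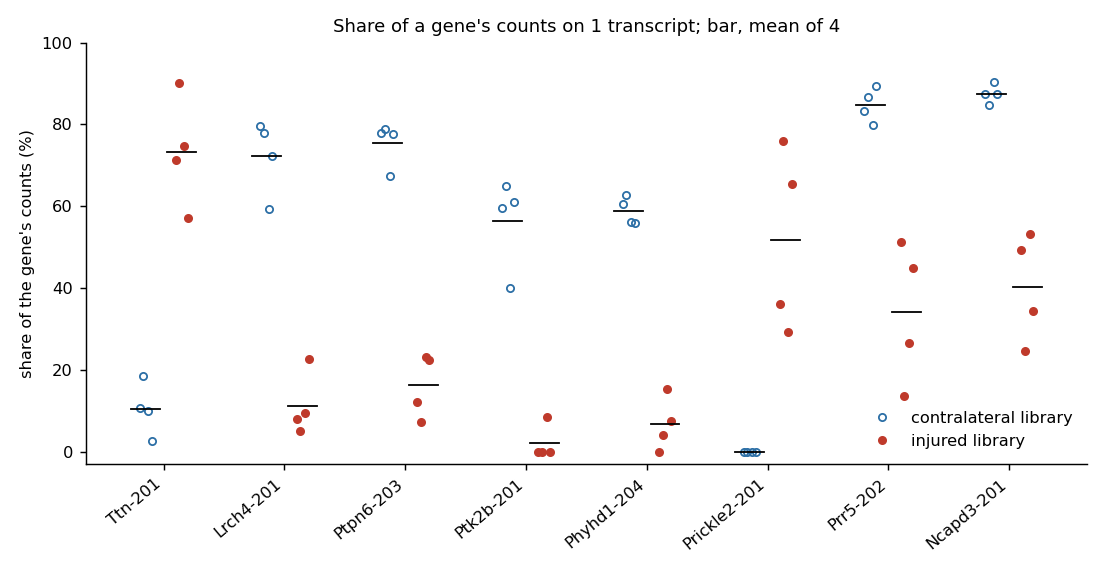
Share of a gene's counts on 1 transcript (vertical axis, %) in the 4 contralateral (open, blue) and 4 injured (filled, red) libraries for the 8 named genes; bars are means. The 8 were chosen for the largest changes in share among genes past the threshold. That the groups do not overlap for any of them is therefore no separate result.

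The same injury was set beside that of the 2 floxed arms, with the difference between responses itself tested in 1 edgeR fit of 24 libraries. The arms share no libraries. In that fit each arm's own injury response was called for 62.2% of genes in wild type, 65.6% in floxed vehicle and 33.8% in the labelled Ihh-deleted arm. Against the floxed vehicle arm 23 of 16989 genes differed (0.135%), and 22 of these (0.129%) had the lower value in wild type. Plk3, a stress-response kinase, had 8.48, 7.96, 6.23 and 7.17 CPM in injured and 5.8 to 15.4 CPM in contralateral wild-type libraries. Its response was -0.38 (SE 0.42) in wild type and 3.50 (SE 0.44) in floxed vehicle, a difference of -3.88 (SE 0.60, adjusted p = 0.00778). Crem, a cAMP-responsive factor, and Pde10a, a cyclic nucleotide phosphodiesterase, were near 0 in wild type (-0.17 and -0.13) and at 1.56 and 2.14 in floxed vehicle. The ERK phosphatases Dusp8 and Dusp4 differed by -1.83 and -1.40, Errfi1, an EGF receptor inhibitor, by -1.70, and Fosl2, an AP-1 subunit, by -1.62. These 7 genes also differed from the labelled Ihh-deleted arm in the same direction, and both comparisons use the same wild-type libraries. Sept4, a septin, was the 1 gene (0.00589%) with a larger value in wild type, by 1.20. The count of 23 rests on single libraries. It was 6 without wild-type injured library 2 or 3 or contralateral library 1, 2 or 3, and 15 without wild-type injured library 1. Without a floxed vehicle library it was 9 (injured 2 or contralateral 4), 7 (injured 3) or 36 (injured 4), and DESeq2 called 150 with all 24. Plk3, Pde10a, Crem and Dusp4 were called whichever library was left out, while Dusp8, Errfi1 and Fosl2 were lost in several of these fits, with adjusted p up to 0.117. In edgeR, Dusp8 and Fosl2 were also not called with library totals (adjusted p = 0.0551 and 0.127) or without the low-count filter (0.051 for both).

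Against the labelled Ihh-deleted arm 1478 genes differed (8.7%), 685 (4.03%) with a larger and 793 (4.67%) with a smaller log2 value in wild type. As a check of the targeted gene, Ihh had 3.44 to 17.2 CPM of unscaled library totals in contralateral and 4.58 to 6.09 in injured libraries of this arm, beside 8.32 to 14.3 and 5.98 to 11.8 in wild type, so it was not absent there. The medians were 6.51 (contralateral) and 4.97 (injured) in this arm, against 10.6 and 9.82 in wild type. For Ihh itself a difference in the response was not called (adjusted p = 0.817). That test subtracts the contralateral from the injured kidney of each arm, so it cannot show a loss shared by both kidneys. The level of Ihh was not tested between arms here. Cx3cr1, the fractalkine receptor of macrophages, rose by 3.02 (SE 0.41) in wild type and stood at -0.22 (SE 0.40) in the labelled Ihh-deleted arm, a difference of 3.24 (adjusted p = 0.00376). Gpr34, of resident macrophages, differed by 3.25. Pck1 and Akr1c18 fell in wild type (-2.73 and -4.18) and were at 0.25 and -1.07 there, differences of -2.99 and -3.11. Whole lists also had smaller median responses in this arm than in wild type. The medians were -0.84 against -2.27 for proximal tubule metabolism, 1.86 against 3.13 for macrophage and 1.14 against 2.29 for matrix genes. Other lists had larger ones, among them heat shock (1.34 against 0.30) and immediate early genes (1.59 against 1.15). These medians were not tested between arms. Differences for Gli1 (2.38 against 1.42) and Col1a1 (3.35 against 1.48) were not called, with adjusted p of 0.316 and 0.0691. Tmem252 differed by -4.58. The size of this set rests on single libraries. It was 380 without wild-type injured library 1, 2327 without wild-type injured library 4 and 3716 without injured library 4 of the labelled Ihh-deleted arm. Leaving out any of the other 13 libraries gave 485 to 860, except for 1771 without wild-type injured library 3.

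**Figure D5:**
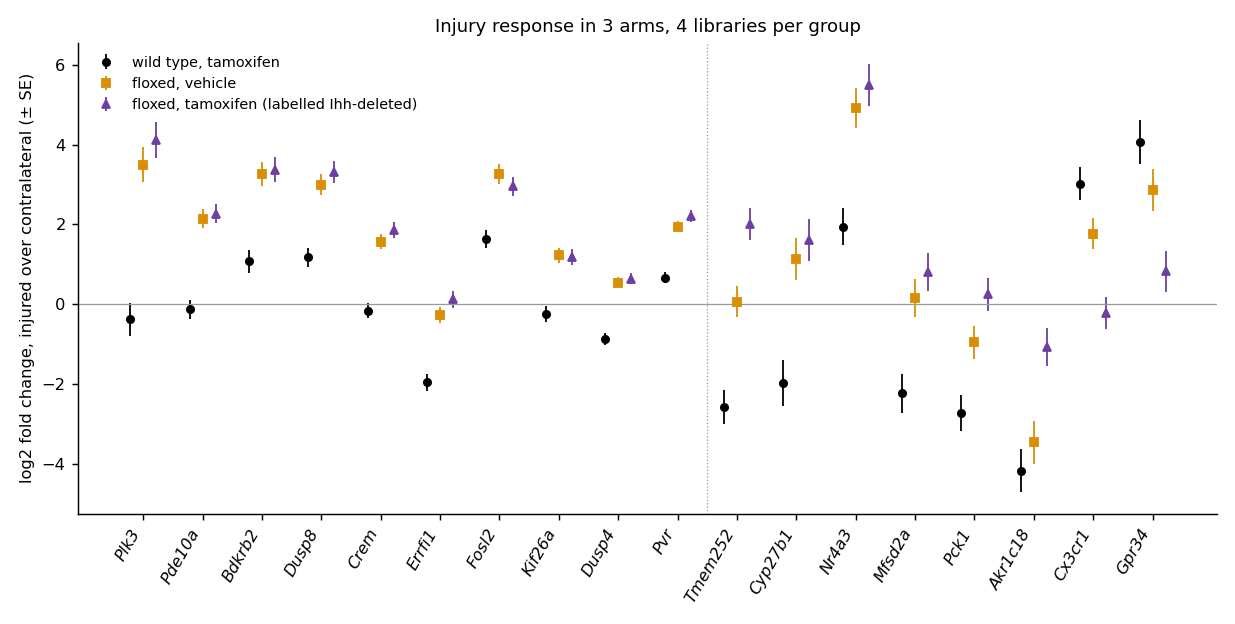
Log2 fold change of the injured over the contralateral kidney, with its SE, in the wild-type tamoxifen (circles), floxed vehicle (squares) and labelled Ihh-deleted (triangles) arms, 4 libraries per group; the dotted line parts the genes named for the first comparison from those for the second. Plk3, Crem and Pde10a lie near 0 in wild type and above 1 in both floxed arms, and Cx3cr1 and Gpr34 are highest in wild type.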

How the data were processed

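Bulk RNA-seq of kidney was deposited as 1 table of Salmon estimated counts per transcript, with 4 columns per group. Per the submitters' processing notes the tools include Salmon 1.4; how the bulk RNA was extracted is not given in the sources used here. The authors' deposited expected counts were not normalized. Of 105833 transcripts, 105281 were matched to GENCODE M21 (GRCm38) and summed to 33714 genes, and the unmatched 552 held 0.185% of counts. Sums were rounded, since 83.2% of positive values were not whole. A gene was tested with edgeR 4.0.16 (R 4.3.3) by filterByExpr, TMM factors (1.13 to 1.22 injured, 0.848 to 0.874 contralateral) and the robust quasi-likelihood F test, with p-values adjusted by Benjamini-Hochberg across every tested gene (threshold 0.05); SE is the log2 fold change over the root of F. CPM is per TMM-scaled library. Differences between arms used 1 fit of 24 libraries, and transcript usage diffSpliceDGE on transcripts with at least 10 counts in 4 libraries. The fits were also run on simulated counts in which few genes changed, so that run cannot check the scaling used here.

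The genes named are fixed Hedgehog, TNF and injury genes, the 15 largest changes per direction at a mean log2 CPM of at least 1 with groups that do not overlap (leaving out immunoglobulin and T cell receptor variable segments, pseudogenes, unnamed gene models and shared symbols), the 4 largest in each of 47 lists, the 10 largest of each arm difference, 8 of transcript usage and the 10 highest per group. The arm and the gene lists were chosen with earlier results of these data known. Genes named beyond this rule are members of the lists or were chosen after their values were seen. No 2 libraries of a group agree within sampling noise (lowest chi-square per gene 10.8). Alternatives were RLE factors, no filter, DESeq2 1.42.0, a test against a fold of 1.5, 24 or 32 libraries, a replicate block, transcript length offsets, each library left out and, chosen after seeing the data, library totals. Promoter windows are RefSeq's on GRCm38 and were matched by symbol for 11832 of 16190 genes. Single-cell files were not used here, and some genes that the rule names are not reported here.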

Additional observations from a re-analysis of the deposited data

Results flagged for a closer look

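In each group of 4 libraries a value was looked at again when 1 library lay far from the other 3 by Dixon's criterion. This was so in 31 of 428 groups of named genes, where chance gives about 1 in 20. Values are CPM. Injured library 2 stood above the others for Ccl8 (93.3 against 25.5 to 27.9), Gbp2 (118 against 41.7 to 50.5), Top2a (109 against 40.4 to 49.8), Bub1 (8.42 against 3.59 to 3.88), Aurkb (7.62 against 3.57 to 4.18), Tnni3 (2.99 against 1.15 to 1.35) and Myh6 (3.06 against 0.956 to 1.19). It also led haemoglobin, with Hbb-bs at 1360, Hbb-bt at 153 and Hba-a1 at 324, and contralateral library 2 led it with Hbb-bs at 1515 and Hbb-bt at 166.

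Injured library 3 stood above the others for Aqp4 (88.1 against 2.38 to 11.7), Cyp4a14 (22 against 0.939 to 2.97), Cyp2d12 (66.5 against 16.8 to 21.6) and Hspa1b (120 against 32.2 to 44.2). Injured library 1 did so for Gpnmb (160 against 14.5 to 29.7) and Gabrp (50.1 against 34.2 to 36). Contralateral library 4 carried the urothelial genes Krt5 (3.69 against 0.142 to 0.526), Psca (4.9 against 0.237 to 0.622) and Upk3a (3.37 against 0.333 to 0.636), and the 1 contralateral value of Crisp1 above 0, 0.0899. Contralateral library 1 was apart for Lyz1 (0.0957), Ltbp2 (2.82), Bub1 (1), Uqcrfs1 (452) and Gm28437 (4833), library 2 for Mettl7a2 (74.1) and library 3 for Top2a (5.43), Gapdh (1825) and Kap (9577).

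The injury response differed between arms by the test of the difference in edgeR. Wild type minus floxed vehicle gave 23 genes, and the log2 differences were -3.88 for Plk3, -2.26 for Pde10a, -2.20 for Bdkrb2, -1.83 for Dusp8, -1.73 for Crem, -1.70 for Errfi1, -1.62 for Fosl2, -1.46 for Kif26a, -1.40 for Dusp4 and -1.28 for Pvr. Bdkrb2 and Kif26a were not called with library totals (adjusted p = 0.0551 for both) or in 12 and 13 of the 16 fits that left out 1 library, with adjusted p up to 0.109 and 0.0903. Wild type minus labelled Ihh-deleted gave 1478. The differences were -4.58 for Tmem252, -4.50 for Plk3, -3.58 for Cyp27b1, -3.56 for Nr4a3, 3.25 for Gpr34, 3.24 for Cx3cr1, -3.11 for Akr1c18, -3.06 for Mfsd2a and -2.99 for Pck1. Among the genes that fell most in wild type it was -2.88 for Neurog2, -2.34 for Mettl7a2, -1.95 for Gldc and -1.79 for Gsta2.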

How the results depend on the processing

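The count of 11016 called genes was 10559 to 11358 with RLE factors, no low-count filter, DESeq2, 24 libraries, the replicate block (10595) or transcript length offsets, and 10197 to 10934 with 1 library left out (5223 to 5592 higher, 4974 to 5342 lower). It was 5807 against a fold of 1.5 (3388 higher, 2419 lower) and 7038 with all 32 libraries (2941 lower). Library totals gave 9268 higher and 2747 lower, so 77.1% of calls were higher, against 51.8% with TMM and 50.6% with RLE factors. The block kept 10379 of the calls with their sign and library totals 8452. By the labels, same-numbered libraries share only a number. Their deviations from the group mean correlated at 0.02 to 0.22, over 0.1 in 3 of 4 pairs. In each group 3 of 4 libraries correlated best with their own number. Whether such libraries come from the same mouse is not stated in the labels, and the main fit did not pair them.

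The 23 genes that differed from floxed vehicle (1 positive, 22 negative) were 12 without the filter (0 and 12), 150 in DESeq2 (36 and 114), 2 with all 32 libraries (0 and 2), 13 with the replicate block (0 and 13), 10 with library totals (0 and 10) and 24 with RLE factors (0 and 24). With 1 library left out they were 6 to 36 (0 to 3 positive, 6 to 33 negative). The 1478 that differed from the labelled Ihh-deleted arm were 833 without the filter (370 and 463), 2893 in DESeq2 (1272 and 1621), 54 with all 32 libraries (18 and 36), 1184 with the block, and 1552 and 421 with library totals. With 1 library left out they were 380 to 3716 (165 to 1941 and 215 to 1775). Transcript usage was called for 296 genes, for 2236 with voom, 213 at a minimum of 50 counts, 249 with the block and 151 to 288 with 1 library left out. The 32 libraries include 3 of other groups that had no kidney profile in earlier results of these data. The lowest total in the uninjured group was 592228 counts. The cause of these moves was not tested.

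Of 214 named genes 195 were called, and 138 kept direction and side of the threshold in every alternative run. Library totals turned the sign of Ptch1 (0.36), Uty (0.12), Ddx3y (0.35), Eif2s3y (0.42) and D10Wsu102e (0.40). The block changed the call of 5, among them Ihh (adjusted p = 0.101) and Hspa1b (0.0541), and of Hbb-bs, Hbb-bt and Hba-a1, all by edgeR. With the block 15 of 18 immediate early genes were called higher and 2 lower, against 8 and 0 without it, 5 erythroid genes were called lower against 0, and Prr5 was not called for transcript usage (adjusted p = 0.0586). In the difference from floxed vehicle the block lost Bdkrb2 (0.124), Errfi1 (0.126) and Kif26a (0.0952). All 32 libraries changed 59, a fold of 1.5 changed 9 and leaving out a library changed 12. At 20711126 to 25476355 counts per library, genes below the filter were not tested.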

Other observations

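Single immunoglobulin variable segments, chosen after their values were seen, were uneven between injured libraries. Of 146 segments tested, 125 were called higher and none lower. Igkv1-88 had 228 and 102 CPM in injured libraries 1 and 2 against 0.656 and 8.96 in libraries 3 and 4. Igkv3-4 had 972 and 792 CPM in injured libraries 2 and 3 and 26.7 and 6.45 in libraries 1 and 4, so the segments that led differed from library to library. Near-identical segments share reads, so the split between them is uncertain.

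Also chosen after its values were seen, Gm28439, a gene model without a functional name, had 241 to 279 CPM in contralateral libraries and 0 to 1.74 CPM in injured ones, while Gm28437 had 4833 to 10463 CPM in contralateral libraries against 2232 to 3640 in injured ones. The part of Salmon's assignment of reads in the values of these gene models was not tested. Cuzd1 had 1.63 to 4.08 CPM in injured libraries and no count in contralateral ones.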
